A study of Mus musculus with 18 samples.

Results

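The protamines Prm1, Prm2 and Prm3, the transition proteins Tnp1 and Tnp2 and the spermatid linker histones H1f6 (H1T), H1f7 (H1T2, H1fnt) and H1f9 (HILS1) were examined in single mouse 2-cell embryos. These 8 genes were chosen by the symbols of the array's annotation, out of 19935 genes that had a probe set naming them alone. A probe set is the group of array probes that reads 1 transcript or gene. Each of the 8 genes had 1 such probe set, and none was shared with another gene.

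In round and elongating spermatids the nucleosomes of most of the genome are taken apart and replaced, first by the small basic transition proteins and then by the arginine-rich protamines, which pack the sperm nucleus. H1T enters spermatocyte chromatin during meiosis, and H1T2 and HILS1 are linker histones of later spermatids. The genes are transcribed in the male germ line, the protamine and transition protein mRNAs are stored before they are translated, and the oocyte strips protamines from the paternal genome soon after fertilization.

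The study asked whether sperm chromatin that keeps too many histones alters expression in the offspring. Amplified cDNA of each embryo was hybridized to its own Affymetrix Mouse Gene 1.0 ST array, with 18 embryos and 28815 probe sets in all. The Parg(110)-/+ group held 9 embryos, 3 from each of the Parg(110)-/- fathers PargA, PargB and PargC, and each carried 1 allele of Parg, the gene of poly(ADP-ribose) glycohydrolase, that lacks exons 2 and 3. The WT group held 9 embryos, 3 from each of the wild-type fathers WT1, WT2 and WT3. All mothers were wild-type, all embryos came from natural mating, all mice had the 129SVE (129S6/SvEvTac) background, and every embryo was collected at the 2-cell stage and treated with no agent. An embryo is written below as its father and its number, as in WT1-3. A heterozygous genotype of the embryo and a mutant father went together in every Parg(110)-/+ embryo, so their effects cannot be told apart. Each array held the RNA of a whole embryo, so a change in 1 of its cells and a smaller change in both cannot be told apart either.

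Facts of the whole series that touch these genes were as follows. Array medians lay between 6.44 and 6.53 in Parg(110)-/+ embryos and between 6.34 and 6.49 in WT embryos on the log2 scale. The probe set of Parg itself averaged 10.23 ± 0.48 in Parg(110)-/+ embryos and 10.54 ± 0.41 in WT embryos (SD, n = 9 each; limma, adjusted p = 0.571), and whether its probes lie in the deleted exons is not known from the sources used here. Defining oocyte transcripts were bright: 10 of 10 markers were measured, and their means over the 18 embryos lay between 8.86 and 12.11. Markers of the 2-cell stage lay between 6.79 and 10.52 (5 of 10 had a probe set of their own), and none of either list was below the median of all probe sets.

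The promoters of the 8 genes were searched for motifs of known spermatid control. CREM, a transcription factor of round spermatids, binds cyclic AMP response elements, whose full form is TGACGTCA, and the general factor TBP binds TATA boxes. RefSeq (build GRCm38.p6) gave a promoter of 300 bases, 250 before and 50 after the start, for 8 of 8 genes. The full TGACGTCA was in the promoter of 0 of the 8 and in 1.79% of all 32851 promoters. The relaxed form TGACNTCA, searched on both strands and so including TGACGTCA, was in 4 of the 8 and in 8.83% of all promoters. The following windows of 30 bases are shown because they carry those matches, in capitals, on the strand of the gene.
Prm1, chr16:10796869-10796898, minus strand: ctggtcctcttTGACTTCAtaattcctagg
Prm3, chr16:10790956-10790985, minus strand: tggagcctttgTGAGGTCAgtgccacaccc
Tnp1, chr1:73015975-73016004, minus strand: gcaaaggttagTGATGTCAcaagagagctg
H1f9, chr11:94967575-94967604, plus strand: aatggccccctTGAGGTCActgcagagata
The match began 64 bases before the start in Prm1, 60 in Prm3, 94 in Tnp1 and 7 in H1f9, and it read on the gene's own strand in Prm1 and on the other strand in the other three.

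The letters TATAA, searched on the gene's strand only and sharing no full match with TGACNTCA, were in 3 of the 8 promoters and in 17.5% of all promoters. They are in capitals below, because TATA boxes are known to lie just before the start.
Prm1, chr16:10796838-10796867, minus strand: gccactagtatcTATAAgaggaagagggtg
Tnp2, chr16:10788671-10788700, minus strand: tcggcccagctaTATAActaggggctgtgg
H1f6, chr13:23695758-23695787, plus strand: cgccctgctctaTATAAgcgcccccccccc
TATAA began 32 bases before the start in Prm1, 33 in Tnp2 and 41 in H1f6. Prm2 and H1f7 had neither motif in this window. In the RefSeq annotation of the same build, Prm1, Prm2, Prm3 and Tnp2 follow one another on chromosome 16, Tnp1 lies on chromosome 1, H1f6 on chromosome 13 beside the histone genes H2bc4 and H4c3, H1f7 on chromosome 15, and H1f9 on chromosome 11 within the locus of Sgca, a muscle sarcoglycan gene.

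The 8 genes were neither bright nor at the bottom of the arrays. Levels were compared with those of all probe sets as a description only, since the brightness of a probe set also depends on its probes. The median of all probe set means over the 18 embryos was 6.47 on the log2 scale, and probe sets below it are called dim here. Tnp1 (mean 5.57, above 27.3% of all probe sets) and H1f6 (6.03, above 38.1%) were dim. The other 6 lay at or above the median: H1f9 at 6.54 (above 51.8%), Tnp2 at 6.67 (55.2%), Prm1 at 6.68 (55.5%), H1f7 at 6.80 (58.4%), Prm3 at 6.90 (60.9%) and Prm2 at 7.17 (66.3%). None reached the upper quartile of 7.80. When each probe set was ranked by its brightest embryo in place of its mean, only Prm2 (above 67.1%) and H1f7 (50.9%) stayed above the middle of the array, and Prm3 (49.8%), Prm1 (46.9%), Tnp2 (45.9%) and H1f9 (43.7%) did not.

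**Figure D1:**
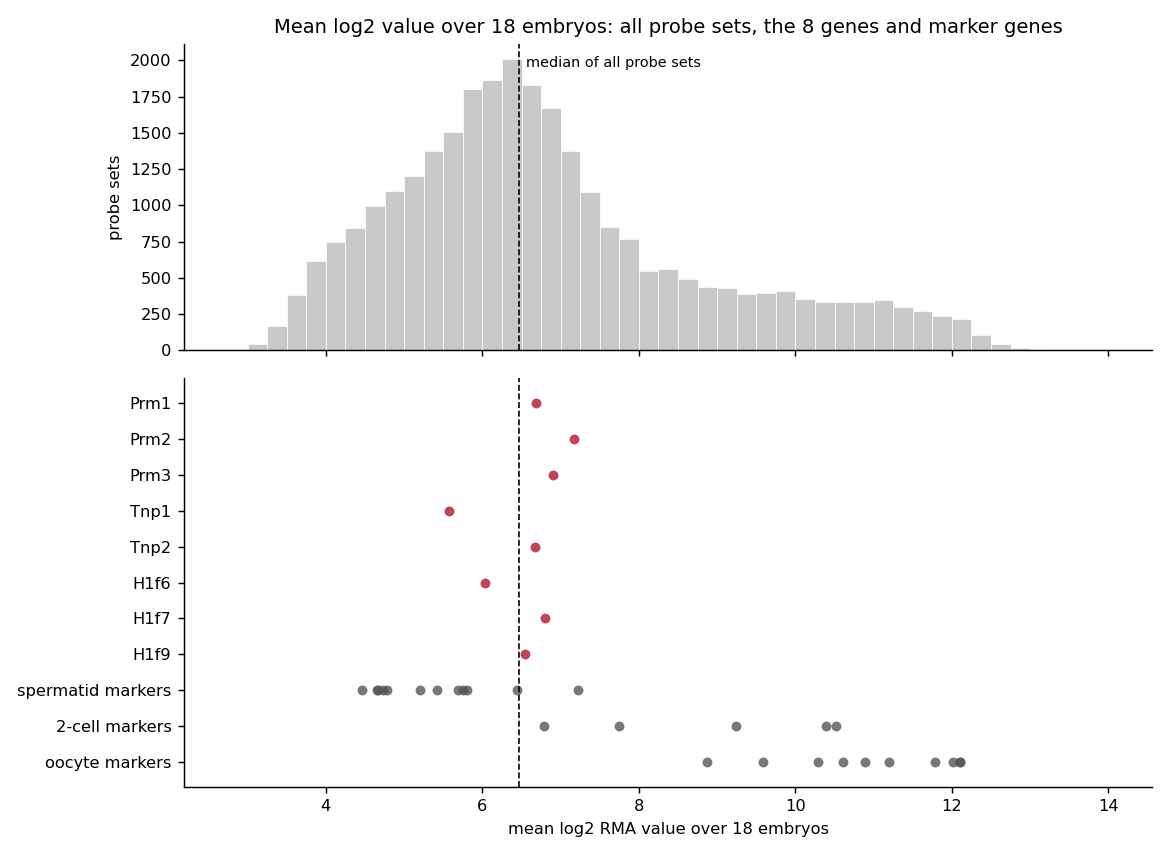
The upper panel counts all 28815 probe sets by mean log2 value over the 18 embryos, and the lower panel gives the means of the 8 genes (red) and of marker genes of spermatids, the 2-cell stage and the oocyte (grey), with the dashed line at the median of 6.47. The 8 genes sit between 5.57 and 7.17, below every oocyte marker.

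Other transcripts of late spermatids gave a scale for these levels. Of 12 spermatid markers, such as Akap4 of the sperm tail sheath and Adam3 of the sperm surface, 11 were dim and their means spanned 4.46 (Akap4) to 7.23 (Tssk2, a testis kinase). The 8 genes lay within that span, all above the marker median of 5.31. Those from H1f9 (6.54) to Prm2 (7.17) lay above every marker but Tssk2, the next brightest marker being Acr at 6.44.

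Within each array the place of these genes was steady. The percentile among the probe sets of the same embryo ran from 49.7 to 61.8 for Prm1, from 55.4 to 65.6 for Prm3, from 22.4 to 35.2 for Tnp1, from 49.4 to 60.9 for Tnp2 and from 35.0 to 42.9 for H1f6. For H1f7 it ran from 53.2 to 66.6, and for H1f9 from 46.3 to 60.1. Prm2 had the widest run, from 58.8 to 79.4. The SD over the 18 embryos was 0.11 for H1f6, smaller than that of all but 9.78% of probe sets, and 0.35 for Prm2, larger than that of 68.5%. The other 6 had SDs between 0.14 and 0.18, below the median SD of 0.20 over all probe sets.

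The main comparison asked whether the 8 genes differed between Parg(110)-/+ and WT embryos. No gene of the 8 was called, with adjusted p between 0.362 and 0.987 (limma, Benjamini-Hochberg over all 28815 probe sets, call at an adjusted p under 0.1), and 0 of all probe sets were called (0%), although 3018 had an unadjusted p under 0.05, and one-way analysis of variance also called 0. The means of 8 of the 8 were higher in Parg(110)-/+ embryos, against 67.1% of all probe sets, but after a rescaling of the arrays Tnp1 and H1f9 turned negative, as given below. The median difference of the 8 was 0.11 on the log2 scale, against 0.05 over all probe sets and 0.06 over the dim ones. Prm1 and H1f6 alone had an unadjusted p under 0.05, which 8.96% of all probe sets had in that direction. No gene of the 8 separated the groups without overlap, as 0.0104% of all probe sets did.

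Among the protamines, Prm1 encodes the protamine made in its mature form. It read 6.63, 6.69 and 6.83 in the Parg(110)-/+ embryos PargA-1 to PargA-3, 6.82, 6.71 and 6.73 in PargB-1 to PargB-3, and 6.98, 6.81 and 6.73 in PargC-1 to PargC-3. Its WT values were 6.59, 6.76 and 6.68 in WT1-1 to WT1-3, 6.397, 6.63 and 6.64 in WT2-1 to WT2-3, and 6.69, 6.42 and 6.54 in WT3-1 to WT3-3. All 9 Parg(110)-/+ embryos lay above the WT mean and 4 of them above every WT embryo, while the ranges overlapped between 6.63 and 6.76. The mean was 6.77 ± 0.10 in Parg(110)-/+ embryos and 6.59 ± 0.12 in WT embryos (SD, n = 9 each), a difference of 0.18 ± 0.06 (SE) or 1.13-fold (95% interval 0.06 to 0.30, adjusted p = 0.362 by limma). An exact two-sided permutation test over embryos gave p = 0.00247 for this single value. The same exact permutation test over the means of the 6 fathers gave p = 0.1, the smallest value that 3 fathers against 3 can reach.

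Prm2, whose protein is made as a precursor and trimmed in the spermatid nucleus, varied most. Offspring of PargA read 7.22, 7.12 and 6.99, offspring of PargB 7.34, 7.26 and 6.96, and offspring of PargC 7.25, 7.59 and 7.10. Among WT embryos, offspring of WT1 read 6.98, 7.16 and 8.32, offspring of WT2 6.82, 6.77 and 7.06, and offspring of WT3 6.92, 7.15 and 6.99. WT1-3 stood above all other 17 embryos, whose highest was 7.59 in PargC-2. The mean was 7.20 ± 0.19 in Parg(110)-/+ embryos and 7.13 ± 0.47 in WT embryos, a difference of 0.07 ± 0.16 (95% interval -0.27 to 0.41, adjusted p = 0.882 by limma). Without WT1-3 the difference was 0.22 (adjusted p = 0.313 by limma), and without WT2-1, WT2-2, WT3-1 or PargC-2 it lay between 0.03 and 0.05.

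Prm3 encodes an acidic protein that shares the protamine locus but stays in the cytoplasm. Its lowest, median and highest values were 6.66, 6.99 and 7.12 in Parg(110)-/+ embryos and 6.64, 6.86 and 7.07 in WT embryos. PargA-3 held the low Parg(110)-/+ value, apart from the other 8 at 6.90 or more. The difference was 0.12 ± 0.07 (95% interval -0.03 to 0.27, adjusted p = 0.551 by limma), and 8 of 9 Parg(110)-/+ embryos lay above the WT mean.

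Of the transition proteins, Tnp1 encodes the more abundant protein of the pair. It had a lowest value of 5.37, a median of 5.55 and a highest value of 5.93 in Parg(110)-/+ embryos, against 5.22, 5.60 and 5.91 in WT embryos. The groups covered nearly the same range, with PargC-1 and WT1-3 at the top of each, and the difference was 0.06 ± 0.09 (95% interval -0.13 to 0.24, adjusted p = 0.823 by limma). Tnp2, which lies in the protamine cluster, had a lowest value of 6.55, a median of 6.74 and a highest value of 6.93 in Parg(110)-/+ embryos, against 6.35, 6.58 and 6.81 in WT embryos. Its difference was 0.12 ± 0.07 (95% interval -0.03 to 0.27, adjusted p = 0.551 by limma). By means per father, Tnp2 was higher for PargA (6.75 ± 0.12) and PargB (6.85 ± 0.08) than for PargC (6.59 ± 0.07) and WT3 (6.61 ± 0.18; SD, n = 3 each). Single WT embryos such as WT3-2, at 6.81, still lay above some embryos of PargA and PargB.

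Of the linker histones, H1f6 varied least. The values were 6.02, 6.05 and 6.09 for PargA offspring, 5.98, 6.16 and 6.15 for PargB offspring, and 6.18, 6.04 and 6.17 for PargC offspring. They were 5.80, 6.10 and 5.93 for WT1 offspring, 5.91, 5.95 and 6.14 for WT2 offspring, and 5.95, 5.94 and 5.98 for WT3 offspring. All 9 Parg(110)-/+ embryos lay above the WT mean, and WT1-2, WT2-3 and, barely, WT3-3 reached into their range. The mean was 6.09 ± 0.07 in Parg(110)-/+ embryos and 5.97 ± 0.10 in WT embryos, a difference of 0.13 ± 0.05 or 1.09-fold (95% interval 0.03 to 0.23, adjusted p = 0.409 by limma). The exact permutation test gave p = 0.0100 over embryos and p = 0.1 over the means of fathers.

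H1f7, whose protein gathers at 1 pole of the spermatid nucleus, had a lowest value of 6.66, a median of 6.81 and a highest value of 7.17 in Parg(110)-/+ embryos, against 6.56, 6.77 and 6.97 in WT embryos. The difference was 0.10 ± 0.07 (95% interval -0.05 to 0.24, adjusted p = 0.602 by limma). H1f9 had a lowest value of 6.31, a median of 6.55 and a highest value of 6.72 in Parg(110)-/+ embryos, against 6.22, 6.55 and 6.83 in WT embryos. The WT range enclosed the Parg(110)-/+ range, and the difference was 0.00 ± 0.08 (95% interval -0.16 to 0.17, adjusted p = 0.987 by limma).

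The exact permutation test of the other 6 genes gave higher p. Over embryos the exact p was 0.107 for Prm3, 0.110 for Tnp2, 0.166 for H1f7, 0.532 for Tnp1, 0.747 for Prm2 and 0.953 for H1f9. Over the means of fathers the exact p was 0.3 for Prm3, Tnp2 and H1f7, 0.6 for Tnp1, 0.8 for Prm2 and 0.9 for H1f9. Single embryos also moved the differences of Tnp1 and H1f7 by over 1.5 times. The difference of Tnp1 was 0.10 without WT1-3, 0.08 without PargB-1, 0.02 without WT2-3 or WT3-1 and 0.01 without PargC-1, and that of H1f7 was 0.06 without PargA-3.

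**Figure D2:**
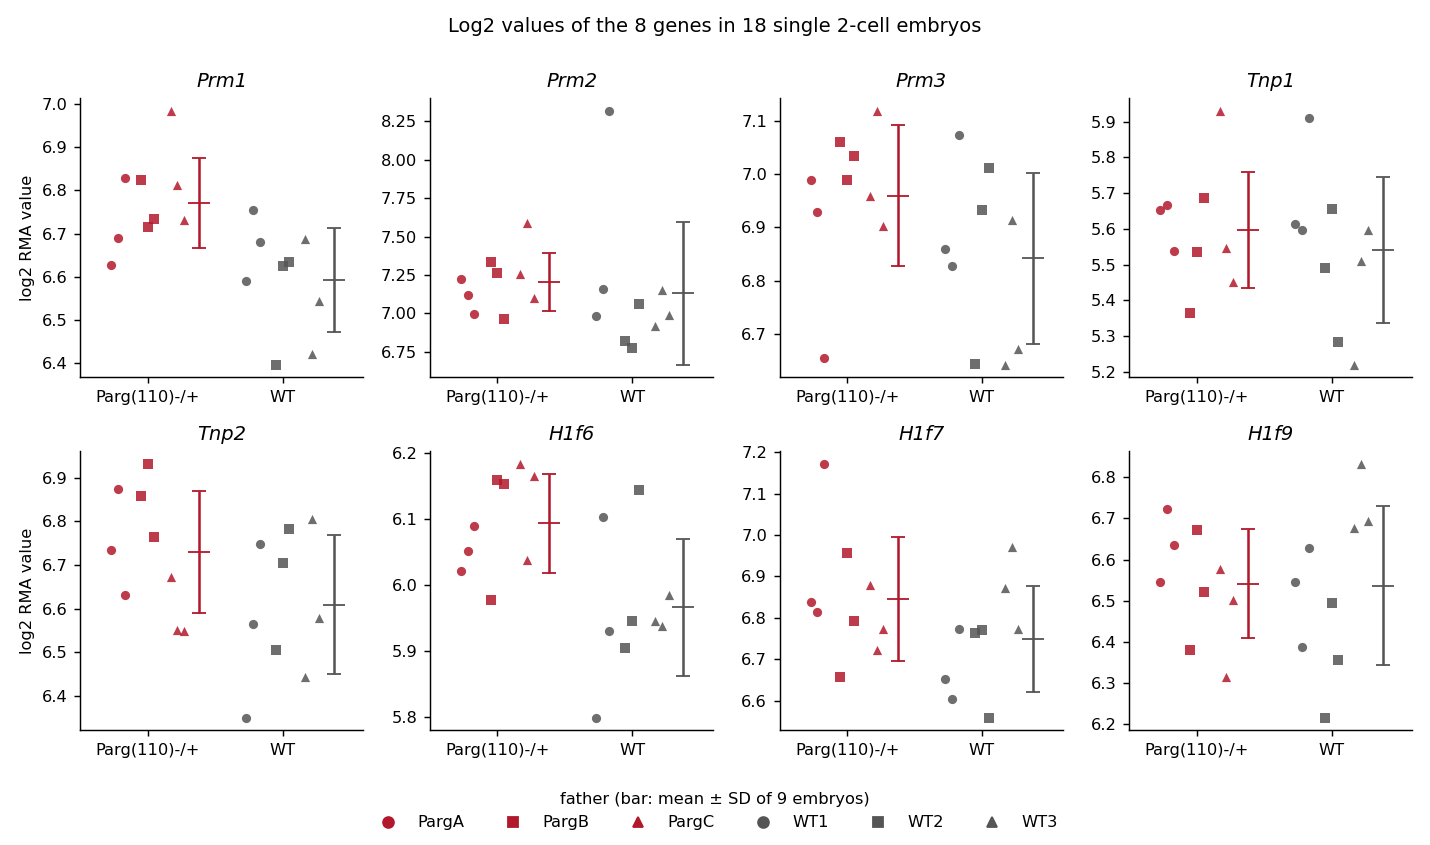
Each point is the log2 value of 1 embryo, with Parg(110)-/+ embryos in red on the left of a panel and WT embryos in grey on the right, the marker shape giving the father, and bars the mean ± SD of 9 embryos; each panel has its own axis. All 9 Parg(110)-/+ embryos lie above the WT mean in the Prm1 and H1f6 panels, the groups overlap in every panel, and Prm2 in WT1-3 stands alone at 8.32.

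The dim probe sets as a whole were shifted between the genotypes. Their mean per array, leaving out the genes examined, was 5.33 ± 0.02 in Parg(110)-/+ embryos and 5.28 ± 0.03 in WT embryos (SD, n = 9 each), a difference of 0.05, and 75.6% of dim probe sets had the higher mean in Parg(110)-/+ embryos. After subtraction of that mean from each array, 7 of the 8 genes were higher in Parg(110)-/+ embryos, against 51.7% of all probe sets. Prm1 was then 0.13 higher (exact permutation test over embryos, p = 0.0140) and H1f6 0.08 higher (p = 0.0582 by the same exact test). H1f9 was lower by that measure, with a difference of -0.04. With array medians made equal, or with a second quantile normalization, 6 of the 8 were higher, against 48.04% and 55.8% of all probe sets: the difference of H1f9 was then -0.05 under both, and that of Tnp1 was -0.00077 and -0.0034. Of the 8 genes, Prm1 alone kept an unadjusted p under 0.05 by limma under each of these 3 scalings, which in the order given 3.49%, 2.86% and 4.27% of all probe sets had in that direction, and its adjusted p were 0.747, 0.781 and 0.764.

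**Figure D3:**
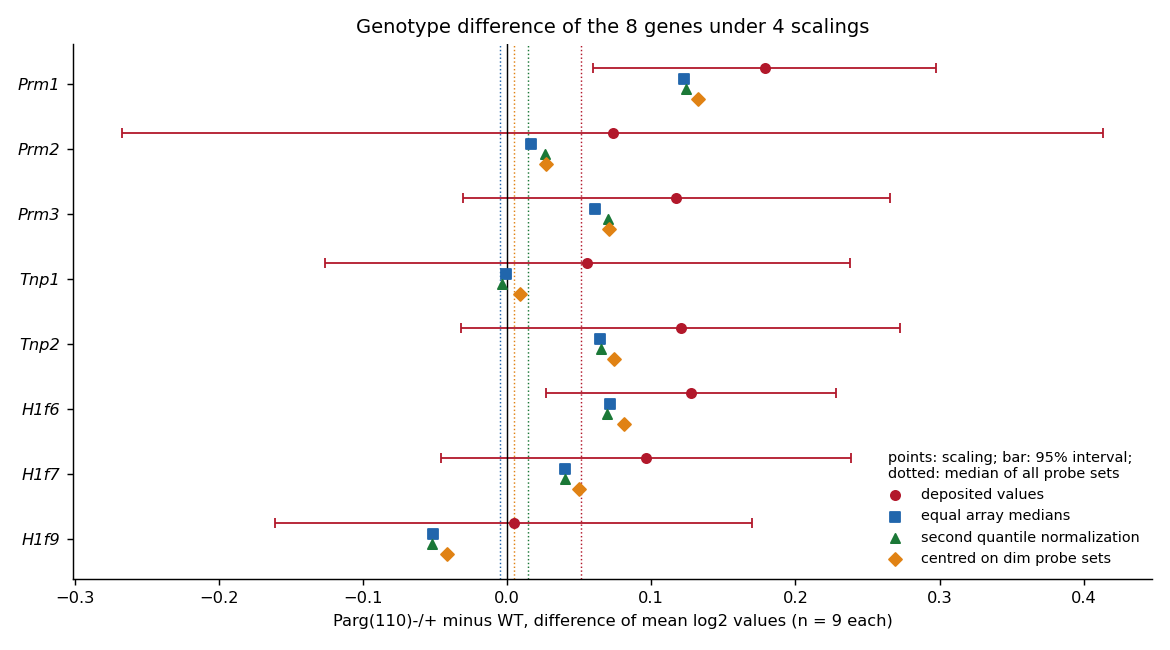
The horizontal axis is the difference of mean log2 values, Parg(110)-/+ minus WT (n = 9 each), for the deposited values (red, with 95% intervals) and for 3 rescalings, and dotted lines mark the median difference of all probe sets under each. With the deposited values the 8 differences run from 0.00 for H1f9 to 0.18 for Prm1, and those of H1f9 lie below 0 after each rescaling.

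Levels of several genes followed the level of the dim probe sets from embryo to embryo. Over the 18 embryos, Pearson's r with the mean of the dim probe sets was 0.73 for Tnp2 (Spearman's rho 0.66), 0.68 for Prm3 (0.66), 0.67 for Prm1 (0.69) and 0.63 for H1f6 (0.54). It was 0.44 for Prm2 (0.62), 0.40 for Tnp1 (0.41), and 0.09 for both H1f7 (0.22) and H1f9 (0.04). These values share the array and its normalization, so they are given without a test. Without the 2 embryos farthest from the median of the dim mean, r was 0.61 for Tnp2, 0.65 for Prm3, 0.54 for Prm1 and 0.41 for H1f6. Within the genotypes the relation was uneven: among Parg(110)-/+ embryos r was 0.22 for Prm1, 0.11 for H1f6, 0.42 for Prm3 and 0.67 for Tnp2, and among WT embryos it was 0.55 for Prm1, 0.51 for H1f6, 0.73 for Prm3 and 0.70 for Tnp2. The part of the dim level in the genotype differences of Prm1 and H1f6 was not tested beyond the rescaling.

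Among the 8 genes, 22 of 28 pairs had r above 0 over the 18 embryos, with a median r of 0.19 and a range of -0.32 to 0.62. The closest pair was H1f7 and H1f9, both late linker histones on different chromosomes (r = 0.62, rho = 0.74). Within the genotypes it kept an r of 0.65 among Parg(110)-/+ embryos and 0.69 among WT embryos. Prm1 and H1f6, also on different chromosomes, came next (r = 0.60, rho = 0.66). Their r was lower within the genotypes, at 0.25 among Parg(110)-/+ embryos and 0.40 among WT embryos. The neighbours Prm2 and Prm3 had r = 0.58 (rho = 0.65), and 0.65 without WT1-3. In the other pairs of the chromosome 16 cluster r ran from 0.13 (Prm1 and Tnp2) to 0.56 (Prm3 and Tnp2). The lowest pair was Prm3 and H1f7, at -0.32. These too are descriptions over arrays that share normalization.

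The same genes were then compared by family, taking the offspring of 1 mutant father at a time (n = 3) against all 9 WT embryos. No gene of the 8 was called for PargA (0% of all probe sets called), PargB (0.0139%) or PargC (0.0104%). Prm1 was 0.12, 0.16 and 0.25 higher in the embryos of PargA, PargB and PargC (SE 0.08 each, adjusted p = 0.997, 0.409 and 0.498 by limma). H1f6 was 0.09, 0.13 and 0.16 higher in the same families (SE 0.07 each, adjusted p = 0.997, 0.445 and 0.644 by limma). These 2 genes were higher in the mean of every family without a call, as were Prm3 and H1f7, given below. Of all 28815 probe sets, 16924 were higher for PargA, 19420 for PargB and 17504 for PargC.

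The other 6 were less even. Tnp2 was 0.24 ± 0.09 higher in the embryos of PargB (adjusted p = 0.323 by limma) and 0.14 ± 0.09 higher in those of PargA, with a difference of -0.02 ± 0.09 for PargC. H1f7 was 0.19 ± 0.10 higher for PargA (adjusted p = 0.943 by limma) and 0.05 and 0.04 higher for PargB and PargC. Prm3 was 0.02, 0.19 and 0.15 higher for PargA, PargB and PargC. The differences of Prm2 were -0.02, 0.06 and 0.18, those of Tnp1 0.08, -0.01 and 0.10, and those of H1f9 0.10, -0.01 and -0.07 in the same order, and each was smaller than its SE. The 3 families share the WT embryos, so these values are not independent of each other.

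The genes were also compared between the fathers of 1 genotype. By limma's F test over the 3 fathers, no gene of the 8 was called among Parg(110)-/+ embryos (0.00347% of all probe sets called) or among WT embryos (0%). With 3 embryos per father, a spread of father means wider than the genotype differences did not pass the threshold. The WT father means of Prm2 were 7.49 ± 0.73 for WT1, 6.88 ± 0.16 for WT2 and 7.02 ± 0.12 for WT3 (SD, n = 3 each). The WT1 mean was raised by WT1-3 alone, at 8.32, beside 6.98 in WT1-1 and 7.16 in WT1-2. The smallest p was that of H1f9 among WT fathers (unadjusted under 0.05, adjusted p = 0.969 by limma). Its means were 6.52 ± 0.12 for WT1, 6.36 ± 0.14 for WT2 and 6.73 ± 0.09 for WT3 (SD, n = 3 each). Among Parg(110)-/- fathers it was that of Tnp2 (adjusted p = 0.929 by limma), with means of 6.75 ± 0.12 for PargA, 6.85 ± 0.08 for PargB and 6.59 ± 0.07 for PargC.

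Because each embryo comes from 1 sperm, every embryo was also set against the WT embryos alone, a WT embryo against the other 8. The lone embryo was assumed to vary as the WT embryos do. For Prm2 the reference of each Parg(110)-/+ embryo held WT1-3, at 8.32, and had a mean of 7.13 ± 0.47 (SD). The reference of WT1-3 was the other 8 WT embryos, at 6.98 ± 0.14. The Prm2 comparisons in Parg(110)-/+ embryos thus rested on a wider WT spread than that of WT1-3. Of 144 such comparisons of the 8 genes, 1 was called, and it was in a WT embryo: Prm2 in WT1-3. None of the 72 comparisons in Parg(110)-/+ embryos was called. The share of all probe sets called in the same way was 0.628%, 0.635% and 0.604% in PargA-1 to PargA-3, 2.17%, 0.691% and 0.826% in PargB-1 to PargB-3, and 0.76%, 0.625% and 0.843% in PargC-1 to PargC-3. It was 0.732%, 0.479% and 0.708% in WT1-1 to WT1-3, 0.93%, 0.68% and 0.6% in WT2-1 to WT2-3, and 1.15%, 0.732% and 0.569% in WT3-1 to WT3-3. The 1 call in 144, a share of 0.694%, was within the range of those shares.

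Prm2 in WT1-3 read 8.32, against a mean of 6.98 ± 0.14 in the other 8 WT embryos (SD), which lay between 6.77 and 7.16. The difference was 1.34 ± 0.16 (SE), or 2.53-fold (adjusted p = 0.00870 by limma). With the 3 rescalings it was 1.26, 1.34 and 1.28, and the adjusted p were 0.00656, 0.00412 and 0.00806. In WT1-3, 204 probe sets were called, 167 of them higher, and Prm2 ranked 361 among all probe sets by upward difference.

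The other 7 genes were not called in WT1-3. Tnp1 was 0.42 ± 0.17 higher (adjusted p = 0.584 by limma), Prm3 0.26 ± 0.16 (adjusted p = 0.816 by limma) and Tnp2 0.16 ± 0.17, and WT1-3 held the highest WT value of Prm3 and of Tnp1. Prm1, H1f9 and H1f7 were 0.10, 0.10 and 0.03 higher, and the difference of H1f6 was -0.04. Of the neighbours of the protamine cluster, Socs1, a suppressor of cytokine signalling, was 0.37 higher in WT1-3, and Rmi2 was 0.03 higher. Of the spermatid markers in that embryo, 0 of 12 were called and 7 were higher, with a median difference of 0.09 and a mean level of 5.403, inside the WT range of 5.29 to 5.43. Of the 2-cell markers 5 of 5 were lower in WT1-3, with a median difference of -0.85 and none called. Of 16 genes of the exchange of histones for protamines, 10 were higher in WT1-3, with a median difference of 0.11. Among these 10 was Tssk6, a testis kinase needed for that exchange in mice. It read 6.15, was 0.72 higher and, like Prm2, was called in this embryo. It was named after its value was seen. Piwil1 (-0.74) and Srpk1 (-0.46) were among the lower ones. The part of these values in the Prm2 level of WT1-3 was not tested.

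Among the Parg(110)-/+ embryos, PargC-1 held the highest value of Prm1, Tnp1 and H1f6 over all 18 embryos, PargC-2 that of Prm3, PargB-2 that of Tnp2 and PargA-3 that of H1f7. The largest differences from WT were 0.46 for Prm2 in PargC-2, 0.42 for H1f7 in PargA-3, and 0.39 for both Prm1 and Tnp1 in PargC-1. None was called. The number of the 8 genes above their own median over the 18 embryos ran from 3 in PargC-3 to 7 in PargA-2, PargB-2 and PargC-1, against 0 in WT2-1 to 5 in WT1-3 among WT embryos.

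**Figure D4:**
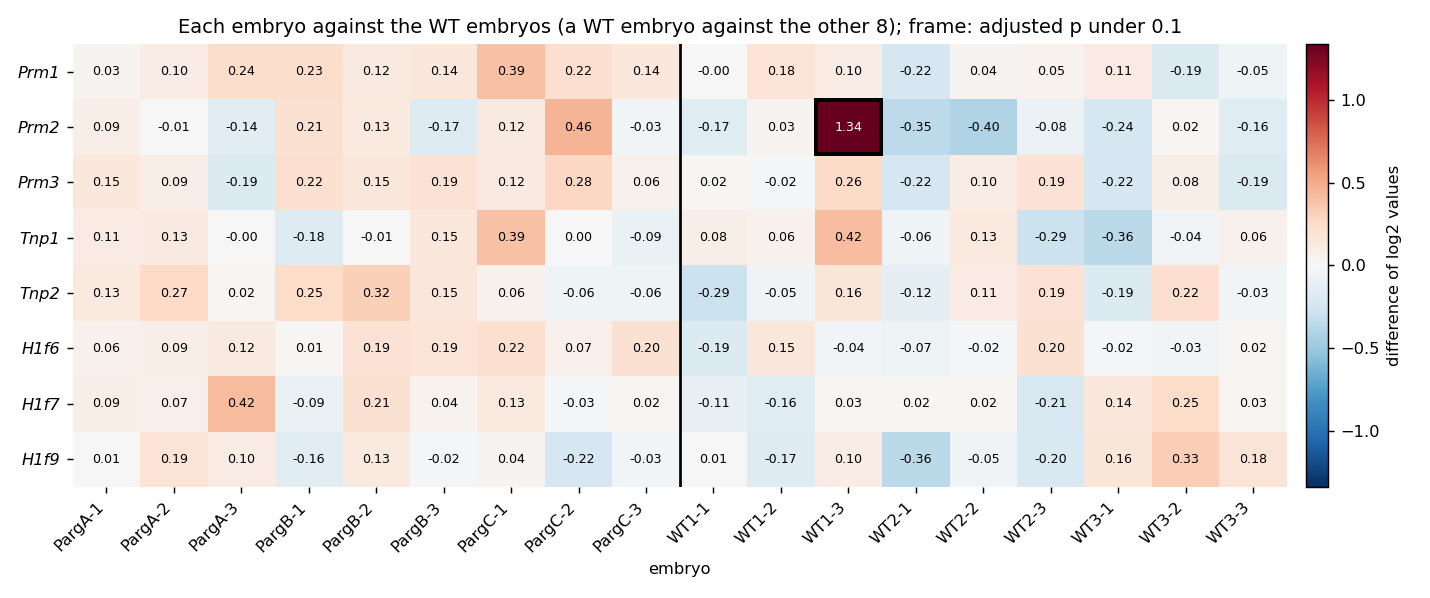
Colour and number give the difference of log2 values of each embryo from the WT embryos, or from the other 8 for a WT embryo, with Parg(110)-/+ embryos left of the line and WT embryos right of it. The 1 framed cell with an adjusted p under 0.1 is Prm2 in WT1-3 (1.34).

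Over the 18 embryos, and after centring on the dim probe sets, the mean profile of the 8 genes was highest in WT1-3 (0.18 above its mean) and lowest in WT2-1 (-0.13). The genes enter this mean unscaled, so the high Prm2 value of WT1-3 weighs on it. That value was 2.98 above the dim mean, against 2.28 in PargC-2, the next highest. The next highest profile was that of PargC-1 (0.10), and a profile without Prm2 was not computed. Of 19927 other genes, those with the most similar profile were Sh3bgr (r = 0.85), Trim34a (0.83), 4930412M03Rik (0.81), Mblac1 (0.81) and Sntn (0.81). Without WT1-3 the r of these 5 lay between 0.67 and 0.75. All 5 were dim, with means of 5.84 for Sh3bgr, 5.96 for Trim34a, 4.997 for 4930412M03Rik, 6.01 for Mblac1 and 4.71 for Sntn, a protein of motile cilia.

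Lists of related genes gave the setting of these values, and no gene of any list was called in the genotype comparison (smallest adjusted p 0.362). Late spermatid transcripts, the mRNAs of the sperm tail, acrosome and surface, were measured for 30 of 30 genes, of which 24 were dim. The mean was higher in Parg(110)-/+ embryos for 26 and lower for 4, with a median difference of 0.06, close to the 0.05 of all probe sets, and 4 had an unadjusted p under 0.05. Adam3, a sperm surface protein, averaged 4.85 ± 0.13 in Parg(110)-/+ embryos and 4.70 ± 0.07 in WT embryos (adjusted p = 0.381 by limma), and Tcp11, a protein of sperm function, averaged 7.06 ± 0.21 in Parg(110)-/+ embryos and 6.86 ± 0.14 in WT embryos (adjusted p = 0.441 by limma). Odf2, an outer dense fibre protein that centrosomes of other cells also hold, was the brightest at 11.35, and Meig1, needed for the manchette of spermatids, the dimmest at 3.78. With equal array medians, a second quantile normalization or centring on the dim probe sets, 15, 17 and 16 of the 30 were higher. The 12 spermatid markers, all of which the list of 30 also holds, had the higher mean in Parg(110)-/+ embryos for 12 of 12 with the deposited values (median difference 0.07) and for 7, 8 and 8 after those rescalings.

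Histone variants of the testis were measured for 8 of 11 genes, with the higher mean in Parg(110)-/+ embryos for 7 (5, 5 and 6 after the same rescalings) and a median difference of 0.14. H2ac1, the testis H2A variant TH2A, averaged 9.06 ± 0.82 in Parg(110)-/+ embryos and 8.17 ± 0.32 in WT embryos, a difference of 0.89 ± 0.28 (adjusted p = 0.362 by limma). H2bu2 averaged 6.96 ± 0.23 in Parg(110)-/+ embryos and 6.75 ± 0.11 in WT embryos (adjusted p = 0.434 by limma). The brightest of the list was the linker histone H1f1 at 11.77, and the dimmest was H2bl1, a spermatid H2B variant, at 4.76.

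The other linker histones, of somatic cells and oocytes, were spread more widely in level. Of 5 measured out of 7, 2 had the higher and 3 the lower mean in Parg(110)-/+ embryos, with a median difference of -0.0048, and 1 was higher after each rescaling. H1f8, the linker histone of oocytes and early embryos, was the brightest, at 9.56 ± 0.94 in Parg(110)-/+ embryos and 9.61 ± 0.44 in WT embryos (adjusted p = 0.967 by limma). H1f10 averaged 7.02 ± 0.16 in Parg(110)-/+ embryos and 6.87 ± 0.10 in WT embryos (adjusted p = 0.451 by limma), H1f3 was the dimmest at 4.84, and H1f2 averaged 6.14 ± 0.21 in Parg(110)-/+ embryos and 6.19 ± 0.38 in WT embryos.

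Factors of the exchange itself were split. Of 16 measured out of 17, 9 had the higher and 7 the lower mean in Parg(110)-/+ embryos, with a median difference of 0.01, and 5, 8 and 5 were higher after the rescalings. Parp1, which makes poly(ADP-ribose) at DNA breaks, averaged 8.06 ± 0.40 in Parg(110)-/+ embryos and 8.57 ± 0.61 in WT embryos, a difference of -0.51 ± 0.23 (adjusted p = 0.465 by limma). Chd5, a chromatin remodeller of spermatids, averaged 6.86 ± 0.11 in Parg(110)-/+ embryos and 6.75 ± 0.11 in WT embryos (adjusted p = 0.514 by limma). Srpk1, the kinase that phosphorylates protamines, was the brightest at 11.79, and Top2b, a topoisomerase, the dimmest at 4.30.

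Regulators of spermatid transcription and translation were measured for 13 of 13 genes, 9 with the higher and 4 with the lower mean in Parg(110)-/+ embryos (median difference 0.06), and 7 were higher after each rescaling. Tarbp2, which binds the stored protamine mRNA, averaged 7.79 ± 0.25 in Parg(110)-/+ embryos and 8.18 ± 0.63 in WT embryos (adjusted p = 0.529 by limma). Sox30, a germ line transcription factor, averaged 5.12 ± 0.17 in Parg(110)-/+ embryos and 5.01 ± 0.09 in WT embryos (adjusted p = 0.565 by limma). Ybx3, a Y-box protein of stored mRNA, was the brightest at 11.01, and Ddx25, a helicase of spermatids, the dimmest at 4.59.

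Oocyte factors that act on the incoming paternal chromatin were bright. Of 12 measured out of 14, none was dim and the median level was 10.36, while 5 had the higher and 7 the lower mean in Parg(110)-/+ embryos (median difference -0.05), and 1, 4 and 2 were higher after the rescalings. Cabin1, of the HIRA histone chaperone complex, averaged 9.27 ± 0.25 in Parg(110)-/+ embryos and 9.54 ± 0.29 in WT embryos (adjusted p = 0.465 by limma). Ipo5, a nuclear import receptor, averaged 11.21 ± 0.29 in Parg(110)-/+ embryos and 11.45 ± 0.10 in WT embryos (adjusted p = 0.450 by limma). Dppa3, which guards DNA methylation in the zygote, was the brightest at 12.10, and H3f3a, a gene for histone H3.3, the dimmest at 6.94.

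Cells that could travel with an embryo were checked by their markers. Of cumulus, granulosa and oviduct markers 8 of 10 were measured and 6 were dim, with means per embryo of 5.84 to 6.33 in Parg(110)-/+ embryos and 5.72 to 5.96 in WT embryos, and 7 had the higher mean in Parg(110)-/+ embryos (median difference 0.14; 7, 6 and 7 after the rescalings). Of these 8, 4 had an unadjusted p under 0.05, and against WT embryos 1 was called higher in PargA-2, 2 in PargB-2, 1 in PargB-3 and 0 in each WT embryo. Of blood markers 4 of 6 were measured and all 4 were dim and had the higher mean in Parg(110)-/+ embryos, also after each rescaling, and 1 had an unadjusted p under 0.05, with means per embryo of 5.09 to 5.23 in Parg(110)-/+ embryos and 4.97 to 5.15 in WT embryos. The spermatid markers had means per embryo of 5.39 to 5.48 in Parg(110)-/+ embryos and 5.29 to 5.43 in WT embryos. The part of these levels in the differences of the 8 genes was not tested.

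**Figure D5:**
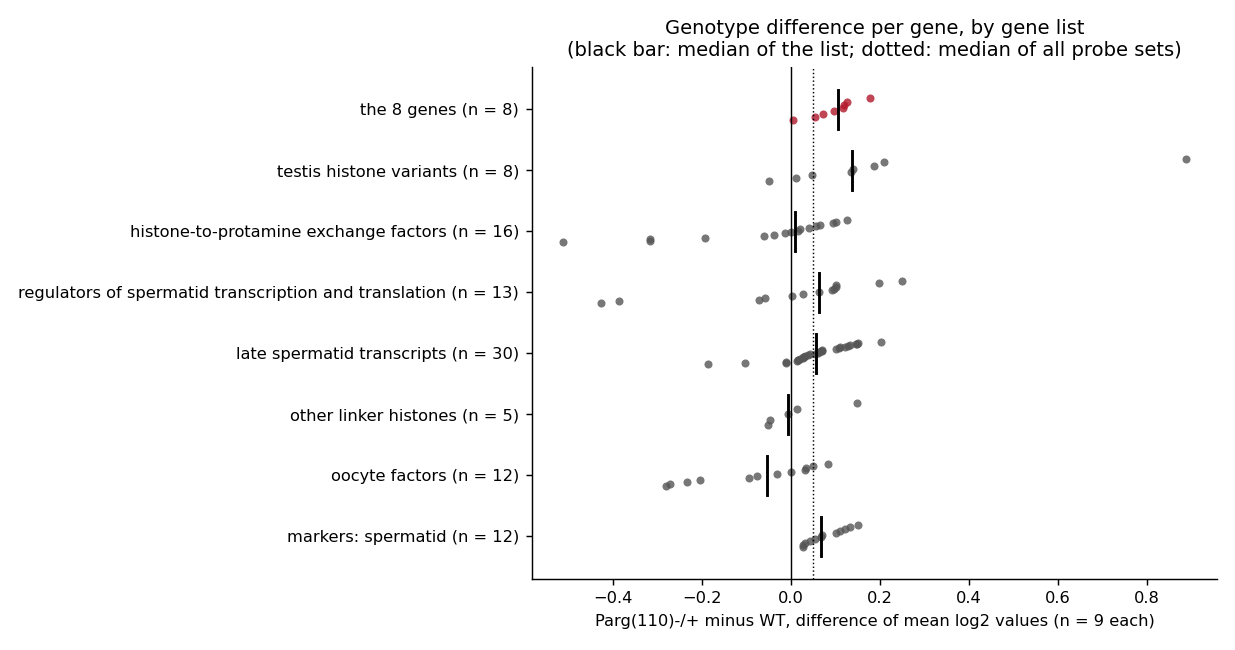
Each point is the difference of mean log2 values of 1 gene, Parg(110)-/+ minus WT (n = 9 each), by gene list, with a black bar at the median of the list and a dotted line at the median of all probe sets (0.05). The 8 genes lie between 0.00 and 0.18, and H2ac1 at 0.89 lies farthest to the right of all genes shown.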

How the data were processed

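Single 2-cell embryos (9 Parg(110)-/+ and 9 WT) were measured on Affymetrix Mouse Gene 1.0 ST arrays from RNA amplified with a NuGen kit (WT-Ovation One-Direct). The values deposited by the authors are on the log2 scale, from RMA in Partek Genomics Suite with background correction, quantile normalization and probe set summarization, and tool versions are not given in the sources used here. Amplification of RNA from 1 embryo adds spread, RMA compresses differences of dim probe sets, and quantile normalization can hide a shift shared by most genes. Of 28815 probe sets, the platform annotation names 1 gene for 21780 and several for 1605. The other 5430 are not listed or are listed without a gene.

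Genes entered through the probe set with the highest mean among those naming the gene alone. Models were fitted to all probe sets with limma 3.58.1 in R 4.3.3, two-sided, with Benjamini-Hochberg adjustment, calling those with adjusted p below 0.1. They were the genotype comparison, each family and each embryo against WT embryos, and an F test between fathers. The genotype fit was tested on simulated data with planted shifts larger than any genotype difference of the 8 genes. That test does not show whether shifts as small as theirs would be called. Single values were compared by exact permutation (scipy 1.17.1) over embryos (48620 assignments) and over means of fathers (20 assignments). Alternatives were 3 rescalings, the father as a random block, means per father, an intensity trend, one-way analysis of variance as in the study's methods, bright probe sets only, and leaving out each embryo and father.

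All 8 genes were named, and list genes where their p was among the 2 smallest of the list or they were the brightest or dimmest of it. The 8 genes and the lists were chosen with earlier results of these data known. Correlations are given without p because the values share normalization and the genes were chosen. Embryos of 1 father share him, so p-values over embryos measure the spread between embryos and not between fathers. The number of embryos limits the precision.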

Additional observations from a re-analysis of the deposited data

Results flagged for a closer look

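In 16 groups, the 8 genes in 2 genotypes, the gap between the most extreme embryo and its nearest neighbour was set against the range of the group, and chance alone marks about 1 group in 20. It was unusually wide in 2 groups. For Prm3 in Parg(110)-/+ embryos it took 0.534 of the range, with PargA-3 at 6.66 below the other 8, and PargA-3 also held the highest H1f7 value of all embryos. For Prm2 in WT embryos the gap took 0.750 of the range, with WT1-3 at 8.32.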

How the results depend on the processing

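In 254 alternative fits of the 8 genotype differences, 238 kept their direction and none passed the threshold (adjusted p 0.271 to 1.000 by limma or analysis of variance). The other 16 changed sign. H1f9 read -0.0518 with equal array medians, -0.0524 with a second quantile normalization, -0.0419 with dim centring, -0.0038 without father WT1, -0.0862 without WT2 and -0.0424 without PargA, and -0.0356 to 0.0416 over the fits without 1 embryo. Tnp1 read -0.00077 and -0.0034 in the first 2 of these, and Prm2 -0.0504 without father WT2. The cause was not tested. Leaving out 1 embryo or father gave 0.14 to 0.22 for Prm1, -0.05 to 0.25 for Prm2, 0.07 to 0.17 for Prm3, 0.0056 to 0.14 for Tnp1, 0.06 to 0.19 for Tnp2, 0.11 to 0.15 for H1f6 and 0.05 to 0.16 for H1f7. With the father as a random block (consensus correlation -0.023) the adjusted p were 0.303 for Prm1 and 0.352 for H1f6, and 0.642 for both on means per father. The count of all probe sets called by genotype was 0 to 1 over fits without 1 embryo (1 without WT1-3 and 1 without PargB-1) and 3 without father WT1, and for PargB it was 2 in place of 4 under each of the 3 rescalings. No gene of the 8 was among them. The mean of all probe sets of a gene was not an alternative here, since each had 1, and the fit to bright probe sets gave no value for Tnp1 and H1f6. No paired analysis was possible because the embryos of the 2 genotypes share no replicate numbers. By their means over the 18 embryos the 8 genes lay below the upper quartile of the array's signal, while Prm2 in WT1-3 (8.32) lay above it.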
